A study of Mus musculus with 2 samples.

Results

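The genes described here are 47 cell cycle genes of the 21937 genes counted in single cells of transgenic E11.5 mouse embryos, a stage in which the organs form. They are 20 genes of S phase, 21 genes of G2/M and 6 regulators of G1, chosen by name, and each symbol was found once among the genes of the deposited matrices. They were read as unique molecular identifiers (UMIs, counts of captured RNA molecules), summed over the cells of each annotated cell type and each cell suspension, and given as levels in UMIs per 10000 UMIs of all genes. In such a sum, fewer cells with a transcript and less of it per cell cannot be told apart, so a second reading was the share of cells holding at least 1 UMI of a list after each cell had been thinned to the same number of UMIs.

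A cell copies its DNA in S phase and divides its chromosomes in mitosis, after G2. The transcripts of the replication machinery rise as cells pass from G1 into S, and those of the mitotic cyclins, kinases and spindle proteins rise later and peak in G2 and mitosis. In the embryo, progenitors of the neural tube and of the mesoderm divide repeatedly, whereas neurons leave the cycle as they are born and red blood cell precursors divide until they mature.

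The study asked how far founders are mosaic for a transgene delivered with the piggyBac transposon. Every embryo carried an enhanced green fluorescent protein (EGFP) transgene under the ubiquitous CAG promoter, linked to a DNA barcode, so no group lacked the transgene. Founders grew from fertilized eggs that received mPBase transposase mRNA by electroporation and the donor DNA by microinjection, and 2 founder embryos gave the suspensions F0_8 and F0_9. The next generation was represented by F1_1, from a single embryo, and by F1_mix, a mixture of cells from different F1 embryos that served as a made-up mosaic and is counted as 1 sample. Placenta and yolk sac had been removed, and the cells had been freed with trypsin and sorted to remove debris. The labels give no sex of the embryos, the paper states that it was not determined at fetal stages, and it was not a term in the tests. Each generation thus had 2 suspensions, p-values measure the spread between these suspensions alone, and the labels do not give ages beyond the embryonic day or a strain.

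The annotated cells numbered 5678 of 6006 barcodes, no barcode was shared between suspensions, and the suspensions held 16052917 to 19160116 gene UMIs with medians of 10880 to 13267 per cell. The submitters' annotation named 16 cell types. Hepatocyte, Midgut, Foregut and Endodermal Progenitor were shallow, with medians of 721.5 to 1674 gene UMIs per cell and 23.0% to 55.9% of UMIs from mitochondrial genes, and they are given apart from the 12 deep types. A set of 4 marker genes was read for each type, and the set of a type was at its highest in that type for 8 of the 16. The name Neuroectoderm/Glia went against its markers, since its glial and neuroectodermal set stood at 0.701 against 23.1 UMIs per 10000 in Neuronal Progenitor, while the neuronal set (Tubb3, Stmn2, Elavl3 and Snap25) stood at 68.9, above the 52.5 of CNS Neuron. The sets of Hepatocyte and Midgut were also near 0 in the types of those names, at 0.0502 and 0.0248, and Chondrocyte held 5.22 of its own set against 6.68 in Gut Mesenchyme/Amniotic Mesoderm, which in turn held 5.19 of its own set against 8.64 in Chondrocyte. The types are named below as annotated. Their clusters were built from the same cells and genes, so differences between types are descriptions without a test.

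The summed S phase level was highest in Erythroblast, at 35.2 UMIs per 10000, and its 4 suspensions lay between 32.8 and 38.3, above every suspension of the next type. Neuronal Progenitor followed at 26.8, with 23.3, 25.5, 28.7 and 28.5 in F0_8, F0_9, F1_1 and F1_mix, the order used for all series of 4 values. Myoblast/Cardiomyocyte stood at 26.3, with 22.0, 25.7, 27.8 and 27.0, and overlapped Neuronal Progenitor. Mesodermal Progenitor came below both, at 20.8 (20.6, 21.5, 20.9 and 20.3). Below it Epithelial Cell (18.8), Hematoendothelial Progenitor/Endothelium (15.6), Gut Mesenchyme/Amniotic Mesoderm (13.4), Ependymal Cell (11.95), Chondrocyte (10.8), Erythrocyte (7.53) and CNS Neuron (4.87) each overlapped their neighbour. Neuroectoderm/Glia was lowest at 2.93, between 2.68 and 3.30, under every suspension of CNS Neuron. The place of Erythrocyte depended on the denominator, since globin genes held 69.3% of its UMIs, and outside mitochondrial and globin genes its S phase level was 24.9 and its G2/M level 37.2 UMIs per 10000. These values pool suspensions that lay far apart. Per 10000 UMIs of all genes they ran from 0.505 to 13.04 for S phase and from 2.19 to 20.2 for G2/M. Leaving out the red blood cells, the S phase level differed 9.12-fold between the highest and the lowest deep type.

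The G2/M level put the types in another order and spread them much further. Mesodermal Progenitor was highest at 55.8 UMIs per 10000 (59.6, 57.5, 52.0 and 55.4), above every suspension of Neuronal Progenitor at 47.6 (47.6, 48.9, 46.1 and 47.8). Erythroblast stood at 42.7 with a wide range of 25.5 to 48.5. Myoblast/Cardiomyocyte, level with Neuronal Progenitor for S phase, reached only 20.001 (18.02 to 21.5). Epithelial Cell (14.5), Hematoendothelial Progenitor/Endothelium (14.3), Erythrocyte (11.2), Ependymal Cell (7.21), Chondrocyte (4.81), Gut Mesenchyme/Amniotic Mesoderm (3.25) and CNS Neuron (1.69) each overlapped their neighbour, and Neuroectoderm/Glia was again lowest at 0.518 (0.430 to 0.565). The measured G2/M levels of Mesodermal Progenitor and Neuroectoderm/Glia had a ratio of 108, but the lower level was within what free RNA can give (below), so this ratio, and those below of single members with few UMIs in Neuroectoderm/Glia, do not measure a fold between the cells themselves.

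**Figure D1:**
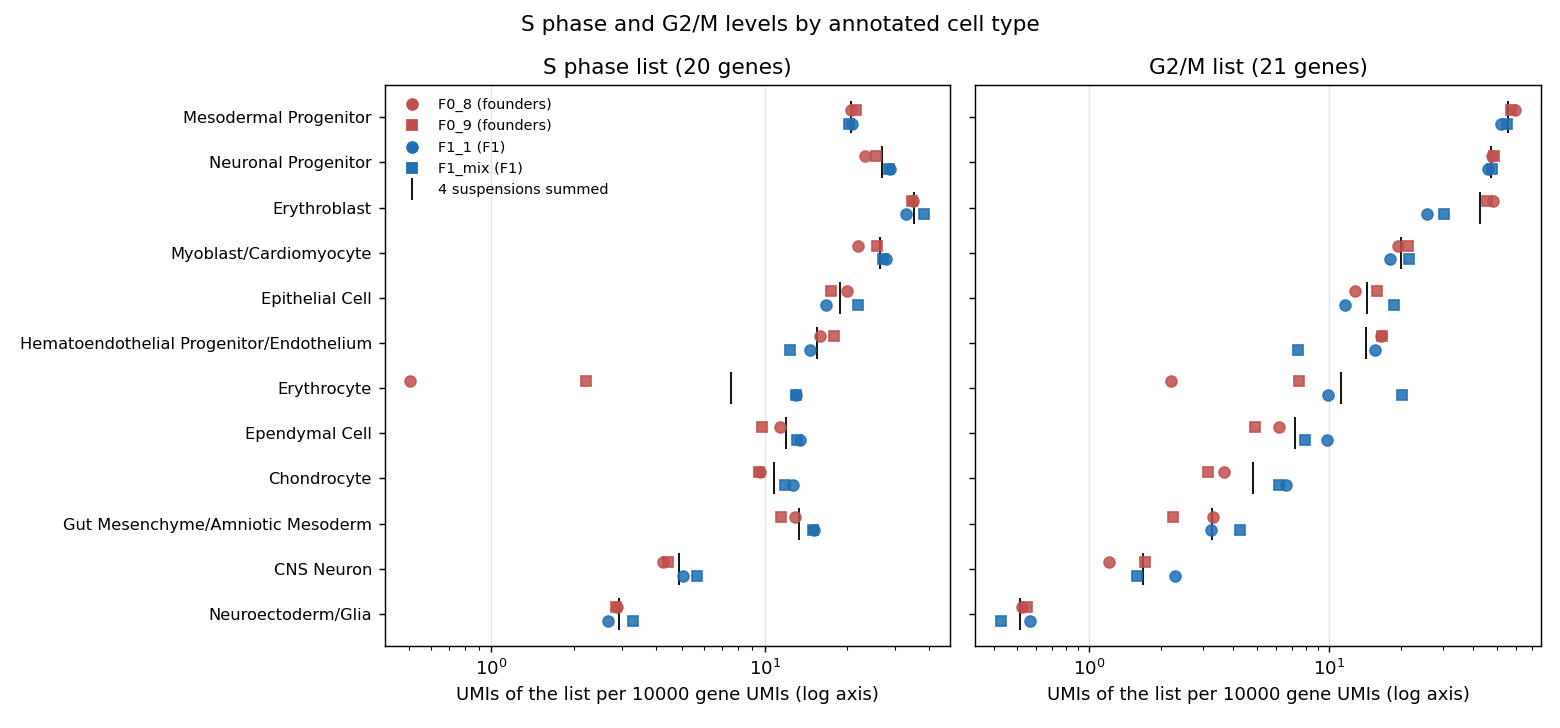
Summed S phase (left) and G2/M (right) level in UMIs per 10000 gene UMIs on a log axis, for the 12 deep cell types, with a point for each of the 4 suspensions and a tick at the level of the 4 summed. Mesodermal Progenitor lies at 55.8 for G2/M and 20.8 for S phase, whereas Gut Mesenchyme/Amniotic Mesoderm lies at 3.25 for G2/M and 13.4 for S phase.

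Types with an S phase level near each other thus differed in G2/M. The ratio of the G2/M to the S phase level was 2.69 in Mesodermal Progenitor and 1.78 in Neuronal Progenitor, 0.760 in Myoblast/Cardiomyocyte, 0.243 in Gut Mesenchyme/Amniotic Mesoderm and 0.176 in Neuroectoderm/Glia. The ratio held its order between these types in each suspension, with 2.49 to 2.89 in Mesodermal Progenitor and 0.195 to 0.285 in Gut Mesenchyme/Amniotic Mesoderm. The 4 shallow types gave S phase and G2/M levels of 14.3 and 22.3 in Foregut, 11.4 and 15.8 in Hepatocyte, 5.95 and 9.65 in Endodermal Progenitor, and 3.02 and 3.05 in Midgut. Outside mitochondrial and globin genes those of Endodermal Progenitor were 12.1 and 19.7.

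The S phase genes were described by role, beginning with replication licensing and the helicase. The proteins encoded by Mcm2 to Mcm7 form the helicase that opens the replication fork, and Cdc6 and Cdt1 load it onto DNA. Mcm3 stood at 1.90 UMIs per 10000 in Myoblast/Cardiomyocyte (1.74, 2.03, 1.90 and 1.91) and at 2.83 in Erythroblast. In Neuroectoderm/Glia only 5 UMIs of Mcm3 were counted, a level of 0.00840, and the ratio between Myoblast/Cardiomyocyte and this type of 227 was the widest of any S phase member. Ratios here and below leave out the red blood cells. Mcm6 stood at 1.80 in Neuronal Progenitor (1.48, 1.70, 2.06 and 1.88) and at 0.119 in Neuroectoderm/Glia. The subunit gene Mcm7 varied least of its complex, from 2.37 in Neuronal Progenitor (1.95, 2.46, 2.67 and 2.36) to 0.427 in Neuroectoderm/Glia, and it was still counted in CNS Neuron at 0.669. Of the loading factors, Cdc6 and Cdt1 each stood at 0.801 in Erythroblast, and outside the red blood cells Cdc6 was highest in Myoblast/Cardiomyocyte (0.418) and Cdt1 in Hematoendothelial Progenitor/Endothelium (0.521), with 8 UMIs each in Neuroectoderm/Glia.

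Among genes of the fork, nucleotide supply and chromatin, Pcna, the sliding clamp of the DNA polymerases, stood at 2.71 in Neuronal Progenitor (2.38, 2.55, 2.92 and 2.89) and at 0.366 in CNS Neuron. Rrm2, the subunit of ribonucleotide reductase whose supply limits the making of deoxynucleotides, varied far more, from 4.59 in Neuronal Progenitor (3.60, 4.35, 4.76 and 5.37) to 0.0773 in Neuroectoderm/Glia, a ratio of 59.4. Its partner Rrm1, named after its values were seen, ran from 1.78 in Mesodermal Progenitor to 0.313, a ratio of 5.70. Within the same enzyme the subunit genes therefore differed in how far they varied between types. Slbp, which binds the stem-loop of histone mRNA, varied least of the S phase members outside the red blood cells, by a ratio of 3.58 between Mesodermal Progenitor (2.22, 2.45, 1.96 and 2.22) and CNS Neuron (0.576, 0.659, 0.527 and 0.664). Ung, a DNA repair glycosylase, had a ratio of 73.9, with 0.621 in Myoblast/Cardiomyocyte and 5 UMIs in Neuroectoderm/Glia.

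The regulators of the step from G1 into S also differed from each other. Ccne1, encoding cyclin E1, which activates Cdk2 at the onset of S phase, stood at 1.15 in Myoblast/Cardiomyocyte (1.05, 1.16, 1.14 and 1.19). It was lower in Neuronal Progenitor (0.438, 0.579, 0.593 and 0.562) and Mesodermal Progenitor (0.532, 0.790, 0.580 and 0.508), without overlap, and 0.0442 in CNS Neuron. Its paralog Ccne2 stood at 0.297 in both Neuronal Progenitor and Myoblast/Cardiomyocyte. E2f1, a transcription factor of S phase genes, was also highest in Neuronal Progenitor at 0.939 (0.824, 1.003, 0.892 and 1.02). Unlike the other S phase members named so far, E2f1 kept a high level in CNS Neuron, of 0.708 (0.654, 0.659, 0.710 and 0.796), while Neuroectoderm/Glia held 0.0420 and Mesodermal Progenitor 0.313. Red blood cells aside, Neuroectoderm/Glia was the lowest deep type for 17 of the 20 S phase members, and the highest was Myoblast/Cardiomyocyte for 9, Neuronal Progenitor for 7, Mesodermal Progenitor for 3 and Hematoendothelial Progenitor/Endothelium for 1.

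Among G2/M genes, Cdk1, the kinase that drives mitosis, stood at 2.64 in Mesodermal Progenitor (2.67, 2.74, 2.55 and 2.63) and at 1.85 in Neuronal Progenitor (1.59, 1.96, 1.96 and 1.87), without overlap. Only 7 UMIs of Cdk1 were counted in Neuroectoderm/Glia and 21 in CNS Neuron. The cyclins that activate it were, in contrast, highest in Neuronal Progenitor outside the red blood cells, while Erythroblast held more Ccna2 (2.62) and Ccnb2 (1.92). In Neuronal Progenitor Ccnb1 stood at 2.04 (2.002, 1.89, 1.98 and 2.23), Ccna2 at 1.89 and Ccnb2 at 1.64. The lead of Neuronal Progenitor over Mesodermal Progenitor was within the spread of the suspensions for Ccnb1, at 1.76 in Mesodermal Progenitor (1.92, 1.54, 1.80 and 1.74), but not for Ccna2, at 1.56 (1.58, 1.53, 1.59 and 1.55). The ratio of Ccnb1 to Neuroectoderm/Glia, where 5 UMIs were counted, was 243, the widest of all members with a ratio.

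The kinases and checkpoint genes were highest in Mesodermal Progenitor. Birc5, encoding survivin of the chromosomal passenger complex, stood there at 4.36 (4.80, 4.75, 4.01 and 4.09) and in Neuronal Progenitor at 3.05 (3.04, 3.24, 3.03 and 2.94). Aurkb, the kinase of the same complex, stood at 1.27 (1.37, 1.39, 1.19 and 1.20) with 4 UMIs in Neuroectoderm/Glia, and the spindle checkpoint kinase Bub1 at 1.38 (1.35, 1.60, 1.20 and 1.44). These genes shared the same highest and lowest type. Of the spindle and kinetochore genes, Cenpe, Tpx2, Kif11 and Hmmr were highest in Mesodermal Progenitor as well, apart from Hmmr in Erythroblast (2.07), at 2.93, 2.77, 1.49 and 1.63. Cenpf, encoding a large kinetochore protein, was higher in Neuronal Progenitor, at 5.61 (5.96, 5.59, 5.43 and 5.50), than in Mesodermal Progenitor, at 4.75 (5.25, 5.01, 3.95 and 4.94). The suspensions of the types did not overlap.

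Top2a, the topoisomerase that untangles sister chromatids, held a level of 8.09 in Mesodermal Progenitor (8.44, 8.77, 7.40 and 8.01), 5.68 in Neuronal Progenitor, 2.51 in Myoblast/Cardiomyocyte, 0.105 in CNS Neuron and 0.0622 in Neuroectoderm/Glia. Mki67, the gene of the proliferation marker Ki-67, stood at 6.08 in Erythroblast, 4.29 in Mesodermal Progenitor (4.12, 4.71, 4.28 and 4.17) and 0.0387 in Neuroectoderm/Glia. Both genes act on mitotic chromosomes and separated the dividing types from the neuronal ones. Ube2c, a ubiquitin-conjugating enzyme that works with the anaphase-promoting complex, stood at 7.13 in Mesodermal Progenitor (7.96, 7.15, 6.46 and 7.08) and 6.86 in Neuronal Progenitor (6.54, 6.98, 6.87 and 7.01), which overlapped. Cdc20, the activator of that complex, was highest in Neuronal Progenitor at 2.26 (2.12, 2.08, 2.29 and 2.49). In all, Mesodermal Progenitor was the highest type outside the red blood cells for 16 of the 21 G2/M members, and Neuroectoderm/Glia the lowest for 20, Aurka being lowest in CNS Neuron.

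**Figure D2:**
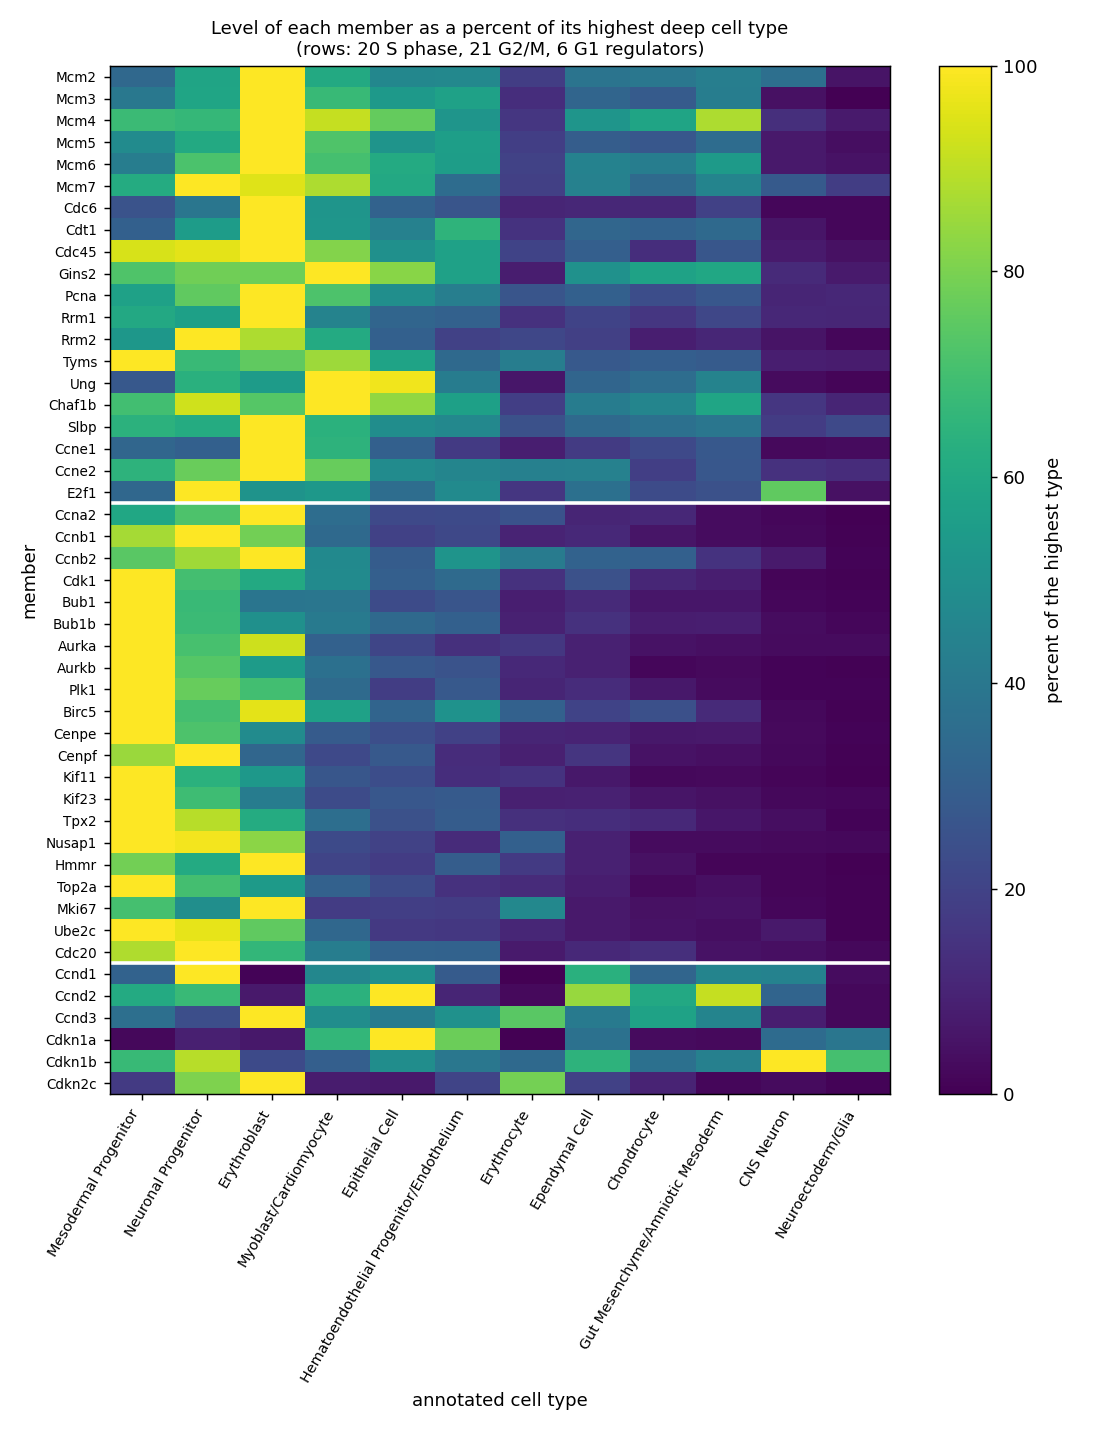
Level of each of the 47 members (rows, grouped by list with white lines between the lists) in the 12 deep cell types (columns), as a percent of the member's highest level among these types on a linear colour scale from 0 to 100. The G2/M rows are near 0 in Neuroectoderm/Glia and CNS Neuron and highest in Mesodermal Progenitor for 14 members, in Erythroblast for 4 and in Neuronal Progenitor for 3, while the rows of the G1 regulators do not follow that order.

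The promoters of the G2/M members shared short sequences that the choice of members had not used. RefSeq promoters of 250 bases before and 50 after the annotated start (build GRCm38.p6) were given for 39 of the 47 members, 18 of them G2/M and 17 S phase, and both strands were searched. TTTGAA, the core of the cell cycle genes homology region, was in 13 of the 18 G2/M promoters (72.2%), in 2 of the 17 S phase promoters (11.8%) and in 17.9% of all 32851 promoters in the table. CCAAT, the box bound by the factor NF-Y, was in 16 of the 18 (88.9%), in 10 of the 17 (58.8%) and in 37.4% of all. Each of the 13 G2/M promoters with TTTGAA also held CCAAT, against 6.95% of all promoters with the pair. Among the 115 other cell cycle genes of the pathway, 28 of 41 G2/M promoters (68.3%) and 9 of 36 S phase promoters held TTTGAA, whereas CCAAT was in 25 of 41 (61.0%) and 23 of 36 (63.9%), without the lead of the G2/M members. TTTGGCGC or TTTCGCGC, forms of the site of the E2F factors, were in 5 of the 17 S phase promoters (29.4%), 1 of the 18 G2/M promoters and 0.813% of all. The letters of the 3 motifs do not overlap each other within a match, and a match is a description of letters and not of binding. In the lists a gene with several annotated starts was counted once, by a match at any start. The shares of all promoters count each start. Among promoters of genes in the matrices, the shares were 15.4% for TTTGAA, 38.0% for CCAAT and 1.08% for the E2F forms.

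The 100 bases before the start are printed 5′ to 3′ on the strand of the gene for 5 G2/M members that carry TTTGAA and CCAAT within them, to show how close the motifs stand to each other and to the start, and for Mcm6 as an S phase member with an E2F form. Capitals mark TTTGAA and CCAAT, or their forms on the other strand TTCAAA and ATTGG, and in Mcm6 they mark TTTGGCGC and ATTGG. The stretches lie at chr10:69352913-69353012 for Cdk1 (minus strand), chr4:118437344-118437443 for Cdc20 (minus), chr19:37376282-37376381 for Kif11 (plus), chr11:99024190-99024289 for Top2a (minus), chr2:164769829-164769928 for Ube2c (plus) and chr1:128359706-128359805 for Mcm6 (minus).
Cdk1: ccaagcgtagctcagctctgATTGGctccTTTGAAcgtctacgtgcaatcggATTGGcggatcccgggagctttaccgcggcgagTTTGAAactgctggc
Cdc20: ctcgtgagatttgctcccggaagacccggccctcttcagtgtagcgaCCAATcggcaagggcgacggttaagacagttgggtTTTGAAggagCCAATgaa
Kif11: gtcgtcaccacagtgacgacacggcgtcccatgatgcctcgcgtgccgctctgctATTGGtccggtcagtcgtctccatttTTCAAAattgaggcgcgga
Top2a: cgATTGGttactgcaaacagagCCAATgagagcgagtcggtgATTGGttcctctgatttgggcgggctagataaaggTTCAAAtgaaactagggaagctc
Ube2c: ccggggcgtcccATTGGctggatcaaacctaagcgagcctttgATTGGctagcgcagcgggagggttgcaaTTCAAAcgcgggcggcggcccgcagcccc
Mcm6: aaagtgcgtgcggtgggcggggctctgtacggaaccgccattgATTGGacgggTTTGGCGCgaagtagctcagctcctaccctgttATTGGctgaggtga
Over all G2/M members the TTTGAA matches numbered 17 and lay from position -179 to 41 relative to the start, 12 of them within 60 bases before to 50 bases after it. In Cdk1 a match lies on either side of the second ATTGG, while in Kif11, Top2a and Ube2c the match in the printed stretch lies between the boxes and the start.

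The G1 regulators did not follow the order of the S phase and G2/M lists. The D cyclins, which pair with Cdk4 and Cdk6 to release cells from G1, were each led by a different cell type. Ccnd1 was highest in Neuronal Progenitor at 5.59 (4.42, 5.20, 5.55 and 6.80), then in Ependymal Cell at 3.55. It stayed at 2.49 in CNS Neuron (1.94, 1.69, 3.51 and 2.91), above Mesodermal Progenitor at 1.76 (1.62, 1.95, 1.63 and 1.89), although the suspensions of these types overlapped. Ccnd2 was highest in Epithelial Cell at 5.68 (7.09, 4.15, 6.11 and 5.32) and stood at 5.17 in Gut Mesenchyme/Amniotic Mesoderm (4.96, 5.68, 4.82 and 5.19), the type with a low G2/M level of 3.25, and at 0.599 in Hematoendothelial Progenitor/Endothelium. Ccnd3 was highest in Erythroblast at 4.05 (4.07, 5.47, 2.06 and 2.10) and Erythrocyte at 3.01, where Ccnd1 gave 0.0554 and 1 UMI. Red blood cells aside, the 3 D cyclins were lowest in Neuroectoderm/Glia among deep types, at 0.187, 0.119 and 0.0891, with Ccnd1 varying there between 0.0303 and 0.435.

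The inhibitors of cyclin-dependent kinases were spread differently again. Cdkn1a, encoding p21, stood at 0.643 in Epithelial Cell (0.462, 0.733, 0.787 and 0.494), 0.500 in Hematoendothelial Progenitor/Endothelium and 0.426 in Myoblast/Cardiomyocyte, and at 0.0146 in Mesodermal Progenitor. In Myoblast/Cardiomyocyte F0_8 stood apart, at 1.19 against 0.302, 0.258 and 0.329, and the 528 UMIs of the type came from 69 of its 644 cells. Cdkn1b, encoding p27, was the most evenly spread member outside the red blood cells, with a ratio of 3.32 between CNS Neuron at 0.585 (0.811, 0.599, 0.481 and 0.469) and Myoblast/Cardiomyocyte at 0.177 (0.201, 0.208, 0.139 and 0.187). Cdkn2c, encoding p18, exceeded 0.1 in 3 of the deep types, with 0.171 in Erythroblast, 0.138 in Neuronal Progenitor (0.146, 0.145, 0.127 and 0.136) and 0.135 in Erythrocyte, the last carried by F1_mix (0.364 against 0 to 0.0652 in the others), with 1 UMI in Neuroectoderm/Glia and 3 in CNS Neuron.

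**Figure D3:**
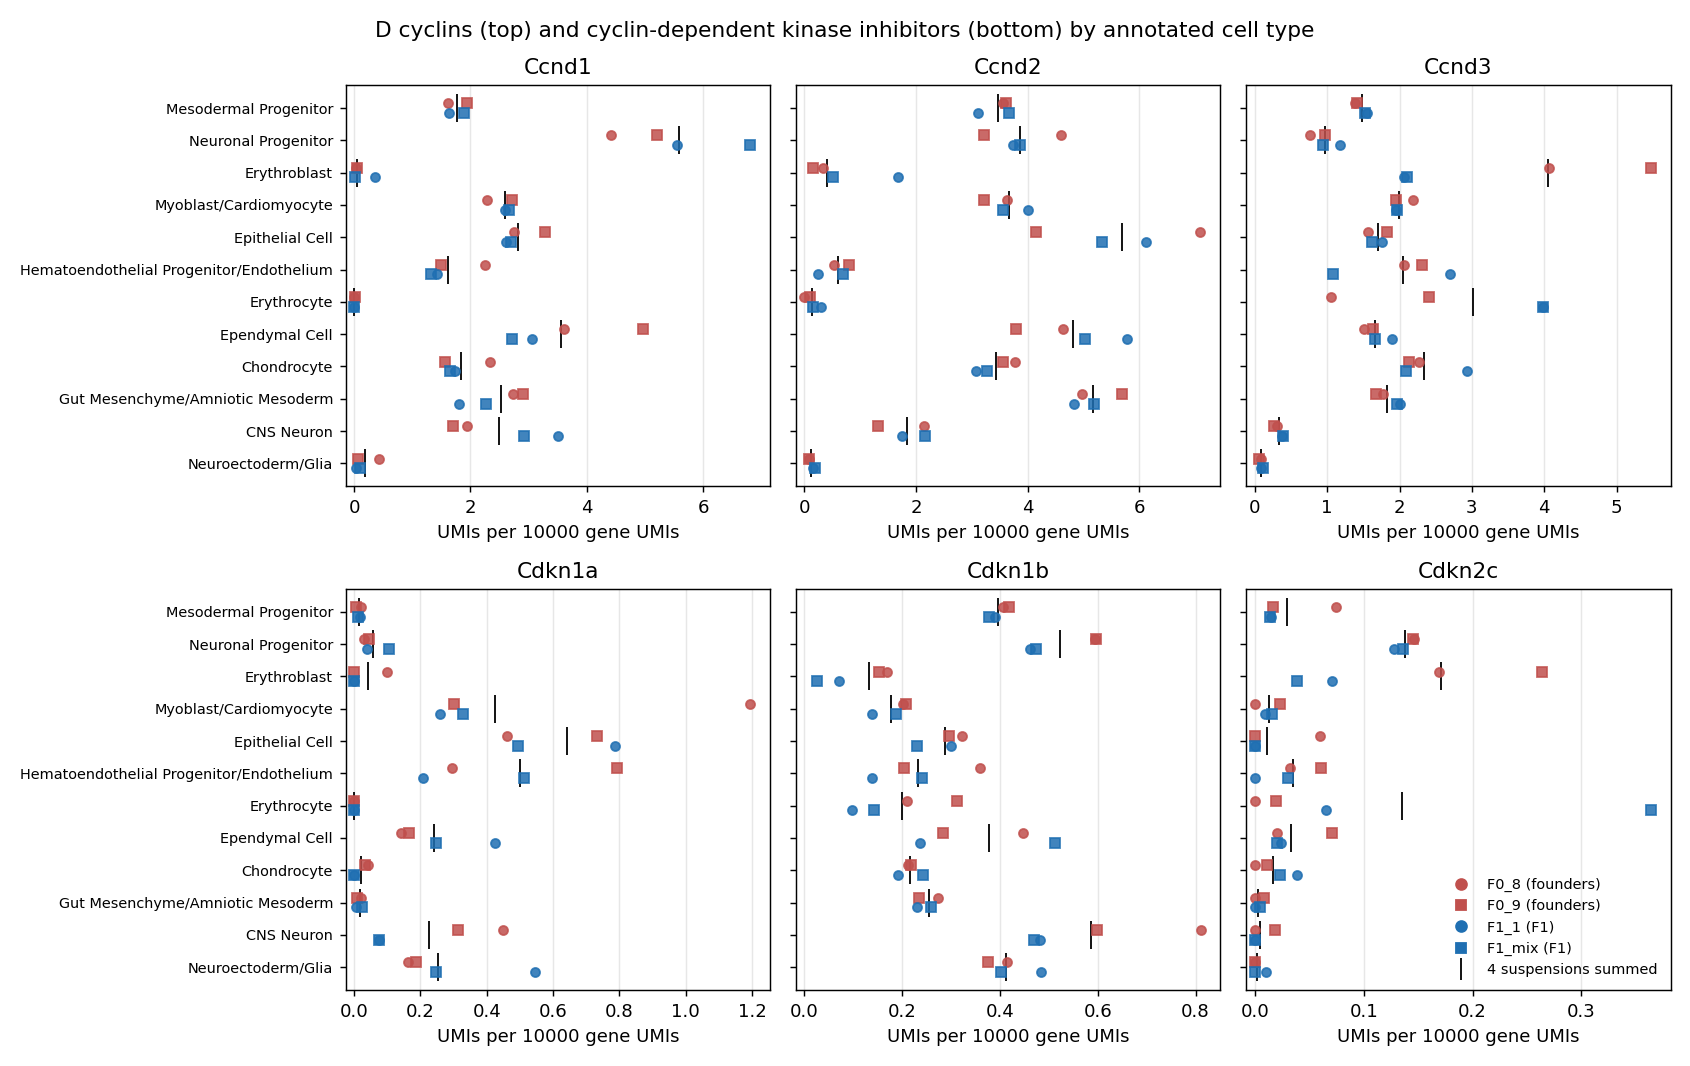
Level of the 6 G1 regulators, in UMIs per 10000 gene UMIs on linear axes of their own, in the 12 deep cell types, with a point for each suspension and a tick for the 4 summed. Ccnd1 is highest in Neuronal Progenitor (5.59), Ccnd2 in Epithelial Cell (5.68) and Ccnd3 in Erythroblast (4.05), and the 4 points of Cdkn1a in Myoblast/Cardiomyocyte run from 0.258 to 1.19.

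Shares of cells were compared after thinning each cell to 5000 gene UMIs, since detection rises with depth, and cells below this depth were left out (17 of CNS Neuron, 13 of Neuroectoderm/Glia and 1 of Mesodermal Progenitor). At least 1 G2/M UMI was found in 494 of 495 Mesodermal Progenitor cells (99.8%) and in 100% of Erythroblast, 92.7% of Neuronal Progenitor and 91.9% of Myoblast/Cardiomyocyte cells. It was found in 74.7% of Hematoendothelial Progenitor/Endothelium, 73.3% of Erythrocyte, 71.3% of Epithelial Cell, 63.7% of Ependymal Cell, 58.8% of Chondrocyte and 54.5% of Gut Mesenchyme/Amniotic Mesoderm cells. The neuronal types closed the order with 32.4% of CNS Neuron and 25.6% of Neuroectoderm/Glia, whose exact (Clopper-Pearson) 95% interval of 21.8% to 29.7% covers counting error only. The median depth before thinning was 18844 gene UMIs in Mesodermal Progenitor and 11544 in Neuroectoderm/Glia. With no thinning the difference between these types was 54.98 percentage points in place of 74.2.

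In the neuronal types most cells with a G2/M UMI held 1 or 2. With at least 3 G2/M UMIs required, the share was 99.6% in Mesodermal Progenitor, 83.4% in Neuronal Progenitor, 75.8% in Myoblast/Cardiomyocyte, 20.7% in Chondrocyte, 15.7% in Gut Mesenchyme/Amniotic Mesoderm and 5.24% in CNS Neuron. In Neuroectoderm/Glia it was 2 of 489 cells, 0.409% (0.0496% to 1.47%). The S phase list was detected at this depth in 99.5% of Neuronal Progenitor, 88.5% of CNS Neuron, 76.5% of Neuroectoderm/Glia and 56.7% of Erythrocyte cells. At 1000 gene UMIs, where the shallow types could be read, at least 1 G2/M UMI was found in 72.9% of Foregut, 55.4% of Hepatocyte, 45.5% of Endodermal Progenitor and 21.1% of Midgut cells, against 6.97% of Neuroectoderm/Glia. These shares leave out the cells below that depth, 70 of 225 in Foregut, 99 of 543 in Hepatocyte, 224 of 268 in Endodermal Progenitor and 167 of 333 in Midgut, so that of Endodermal Progenitor rests on 44 cells.

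Cell cycle transcripts were also present outside cells. In 1435345 droplets with 1 to 100 gene UMIs that belonged to no suspension the G2/M level was 18.2 and the S phase level 17.3 UMIs per 10000, and in 53828 droplets with 100 to 300 gene UMIs they were 18.1 and 13.4. If every globin UMI in Neuroectoderm/Glia had come from such free RNA, it would supply 0.107 of the G2/M level by the emptier droplets or 0.626 by the fuller ones, against 0.518 measured, and 0.101 or 0.465 of the S phase level, against 2.93. The G2/M level of Neuroectoderm/Glia therefore could not be told apart from free RNA, whereas its S phase level was above either estimate. In CNS Neuron the same reckoning gave 0.113 or 0.664 of 1.69. The levels of the progenitors lay far above the droplets, at 55.8 and 47.6, and those of Foregut and Hepatocyte did not, at 22.3 and 15.8.

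Single cells of the cycling types were then placed by their number of G2/M UMIs at 5000 gene UMIs, and the S phase UMIs at the same depth were averaged. In Mesodermal Progenitor 303 of 495 cells (61.2%) held 20 or more G2/M UMIs, 129 held 10 to 19, 61 held 3 to 9 and 2 held fewer. In Neuronal Progenitor the cells spread more evenly, with 257 (43.6%), 120, 114 and 98, and in Myoblast/Cardiomyocyte the highest class held 75 of 640 cells (11.7%), after 172, 238 and 155. Mesodermal Progenitor thus had almost no cell without G2/M transcripts, and its mean S phase count fell from 19.9 UMIs at 3 to 9 G2/M UMIs through 12.7 to 7.61 at 20 or more. In Neuronal Progenitor the mean S phase count was 10.0 at 0 to 2 G2/M UMIs, 19.1 at 3 to 9, 15.8 at 10 to 19 and 10.1 at 20 or more. Myoblast/Cardiomyocyte gave the same shape with 11.47, 14.9, 13.6 and 8.25. The classes are ranges of a count and not cell types, and 63 Mesodermal Progenitor cells lay within 2 UMIs of the limit at 20. The depth before thinning rose with the class, in Neuronal Progenitor from a median of 11323.5 to 14788 gene UMIs, and its part in these values was not tested.

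**Figure D4:**
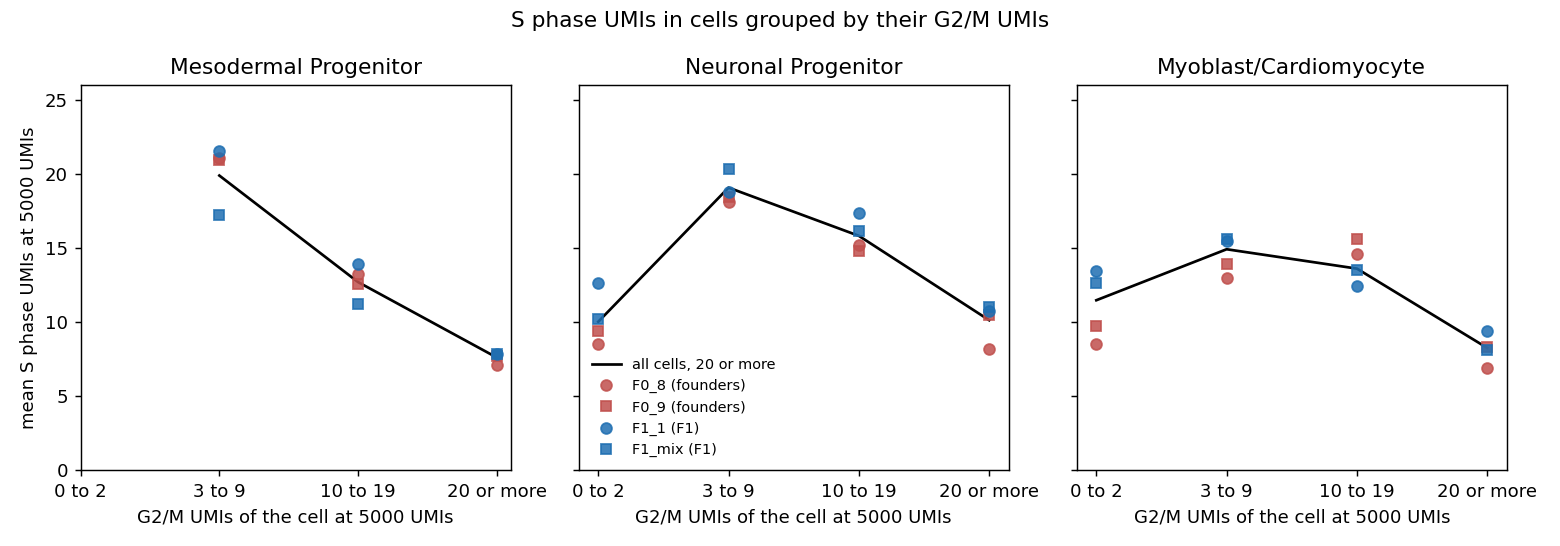
Mean S phase UMIs per cell against the number of G2/M UMIs per cell, both after thinning to 5000 gene UMIs, in 4 classes (0 to 2, 3 to 9, 10 to 19, and 20 or more), for 3 cycling types, with a point for each suspension and a line for all cells, in classes of 20 or more cells. In Neuronal Progenitor the line rises from 10.0 to 19.1 and returns to 10.1, and in Mesodermal Progenitor it falls from 19.9 to 7.61.

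The single regulators were read over the same classes at full depth. Ccne1 was highest at 3 to 9 G2/M UMIs and lowest at 20 or more, with 1.66 and 0.337 UMIs per 10000 in Mesodermal Progenitor, 1.04 and 0.311 in Neuronal Progenitor, and 1.47 and 0.462 in Myoblast/Cardiomyocyte. E2f1 followed it, from 0.858 to 0.170 in Mesodermal Progenitor and from 1.42 to 0.711 in Neuronal Progenitor. Both genes act at the entry into S phase. Ccnd1 fell over these classes in Mesodermal Progenitor, from 3.61 to 1.37, but stayed at 5.94 and 5.89 in Neuronal Progenitor, whose cells with 0 to 2 G2/M UMIs held 3.86. The inhibitor Cdkn1b ran the other way, from 0.199 to 0.475 in Mesodermal Progenitor and from 0.444 to 0.661 in Neuronal Progenitor. In Myoblast/Cardiomyocyte Cdkn1a stood at 1.42 in cells with 0 to 2 G2/M UMIs (2.996, 1.20, 0.539 and 1.23) and at 0.155, 0.0639 and 0.277 in the higher classes. The class of the highest G2/M counts ran from 0 in F0_8 to 0.821 in F1_1 for Cdkn1a, so it overlapped the class of 0 to 2 G2/M UMIs.

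Founders were compared with the F1 generation in each of 13 cell types with at least 20 cells in every suspension, by edgeR's quasi-likelihood test on summed counts with Benjamini-Hochberg adjustment over all genes tested in the type. All 47 members were tested in at least 1 type after the filter on low counts, giving 386 pairs of member and type. Midgut, 1 of the 13 types, had no member above the filter. Adjusted p fell below 0.05 for 5 of the 386, 1 higher and 4 lower in the founders, beside 0.752% of all 99241 pairs of gene and type (0.492% higher and 0.26% lower). At an unadjusted p under 0.05 there were 16 pairs higher and 71 lower, 22.5% of the 386, beside 10.2% of all pairs. Whatever their p, 131 pairs were higher and 255 lower in the founders, and the calls fell in CNS Neuron and Chondrocyte.

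In CNS Neuron, where the test called 0.777% of all genes (0.474% higher and 0.303% lower), the level of Cdkn1a (ENSMUSG00000023067) was 0.448 and 0.315 UMIs per 10000 in the founders and 0.0764 and 0.0744 in the F1 suspensions. The groups did not overlap, and the difference was 2.30 on the log2 scale (SE 0.30, adjusted p 0.00713 by edgeR). It rested on 63, 52, 10 and 13 UMIs in 15, 17, 7 and 9 cells, and 38 of the 63 UMIs of F0_8 were in 1 cell. Without the 3 highest cells of each suspension the levels were 0.118 and 0.148 against 0.0315 and 0.0354, still without overlap. The edgeR interaction test was run for CNS Neuron and Chondrocyte alone because they held called members, so it is not independent of those calls. The difference exceeded that in the other deep types by 2.33 on the log2 scale (edgeR interaction, adjusted p 4.2e-04), and leaving out F0_8 gave 2.04 with an adjusted p of 0.166 within CNS Neuron. Ccnd1 (ENSMUSG00000070348) went the other way in the same cells. Its level was 1.94 and 1.69 in the founders against 3.51 and 2.91, a difference of -0.84 (SE 0.12, adjusted p 0.00955 by edgeR), with a UMI in 48 of 126 and 46 of 151 cells against 50 of 110 and 58 of 145. The difference from the other deep types was -0.58 (interaction, adjusted p 0.0261), and leaving out F0_8 gave -0.93 with an adjusted p of 0.158 in CNS Neuron, while the interaction was lost without F0_9 (adjusted p 0.217) or F1_1 (0.290). Both genes ran the opposite way in Neuroectoderm/Glia, the type with the higher neuronal set. Without the filter on low counts, Cdkn1a differed there by -1.14 (adjusted p 9.3e-04 by edgeR) and Ccnd1 by 1.85 (adjusted p 1.4e-05 by edgeR). Neither was called there with the filter. In CNS Neuron the neuronal marker set stood at 51.3 and 48.7 in the founders against 53.2 and 56.6, and the Neuronal Progenitor set at 2.43 and 3.32 against 3.66 and 3.40. Of the 17 marker sets 1 was higher in both founders (Chondrocyte, 0.420 and 0.460 against 0.382 and 0.338), 3 were lower, the third being the Endodermal Progenitor set (0.0711 and 0.0303 against 0.199 and 0.183), and 13 overlapped. The part of these sets in the result was not tested.

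In Chondrocyte, where 1.16% of all genes were called (0.802% higher and 0.362% lower), all 3 called members were G2/M genes and lower in the founders. Ccna2 (ENSMUSG00000027715), encoding cyclin A2, stood at 0.149 and 0.163 against 0.486 and 0.403, a difference of -1.51 (SE 0.31, adjusted p 0.0320 by edgeR), from 14, 15, 38 and 35 UMIs. Tpx2 (ENSMUSG00000027469), a factor of spindle assembly, stood at 0.138 and 0.217 against 0.499 and 0.472, a difference of -1.46 (SE 0.30, adjusted p 0.0331 by edgeR). Birc5 (ENSMUSG00000017716) stood at 0.849 and 0.783 against 1.34 and 1.38, a difference of -0.75 (SE 0.16, adjusted p 0.0377 by edgeR). The founders lay below the F1 suspensions for each of the 3 genes. All 14 tested G2/M members were lower in the founders in this type, with a median difference of -0.93, and 11 of them had an unadjusted p under 0.05, beside 10.3% of all genes. Of the 17 tested S phase members 14 were lower, with a median of -0.41. At 5000 gene UMIs the share of Chondrocyte cells with at least 3 G2/M UMIs was 16.3% and 14.6% in the founders (14 of 86 and 12 of 82 cells), against 14 of 56 and 21 of 70 cells in the F1 suspensions.

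The Chondrocyte calls depended on the test and on single suspensions. DESeq2 called none of the 3, with adjusted p of 0.473, 0.473 and 0.534, and without a filter on low counts their adjusted p by edgeR were 0.387 to 0.446. The differences of Ccna2, Tpx2 and Birc5 were -1.52, -1.46 and -0.75 by DESeq2. Without the filter they were -1.51, -1.45 and -0.75. Leaving out F0_8 gave differences of -1.45 for Ccna2, -1.17 for Tpx2 and -0.82 for Birc5, and leaving out F0_9 gave -1.56, -1.80 and -0.68. Without F1_1 they were -1.37, -1.41 and -0.77, and without F1_mix -1.64, -1.50 and -0.73. The calls were not all kept in these fits, each of which leaves 1 suspension in a group. Compared with the other deep types, the difference was -1.41 for Ccna2 (interaction, adjusted p 0.0289), -1.32 for Tpx2 (0.0377) and -0.66 for Birc5 (0.0894). Without F1_1 the interaction became -1.27 for Ccna2 (adjusted p 0.263) and -1.23 for Tpx2 (0.275), and that of Tpx2 was also lost without F0_8 (0.207) or F1_mix (0.0608). Marker sets moved with the groups in these cells. The Chondrocyte set (Sox9, Col2a1, Acan and Matn1) was 6.74 and 6.20 in the founders against 2.996 and 4.52, the Gut Mesenchyme/Amniotic Mesoderm set 8.92 and 10.7 against 6.91 and 7.75, and the Epithelial Cell set 0.244 and 0.380 against 0.922 and 0.748. Of the 17 marker sets 3 were higher in both founders, 3 lower and 11 overlapped. The part of these sets in the result was not tested.

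**Figure D5:**
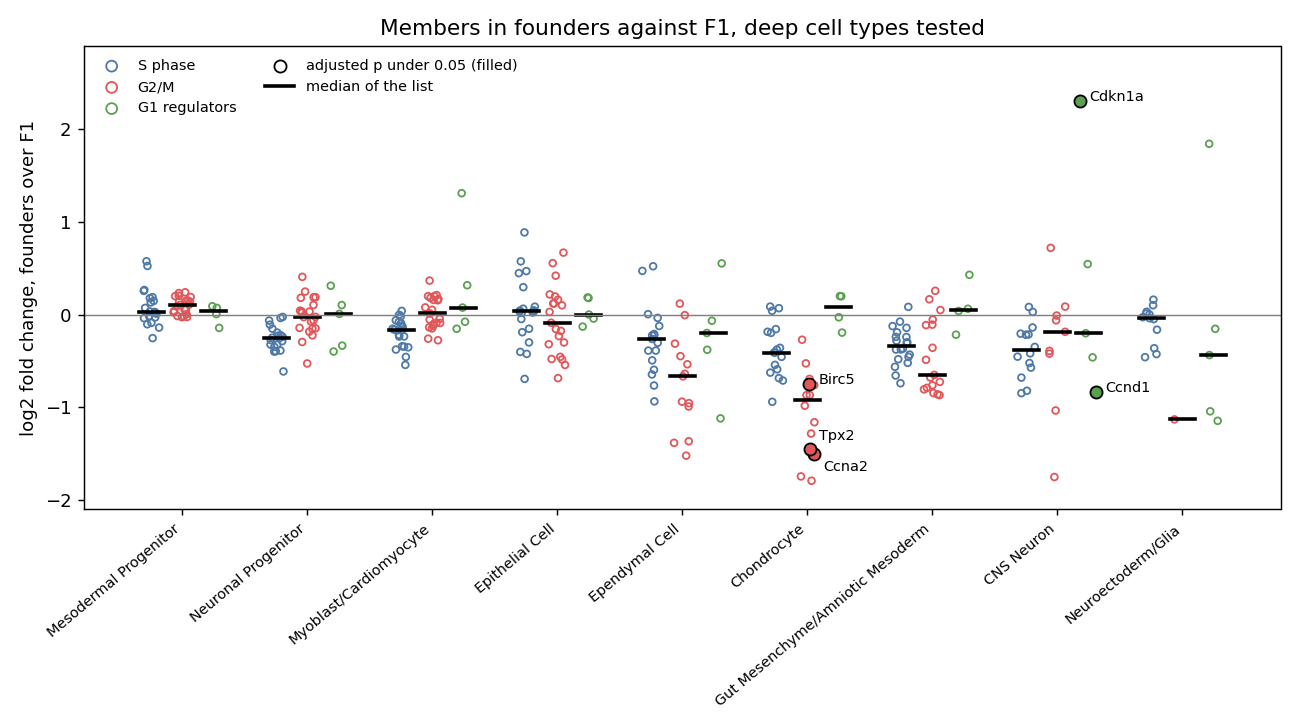
Difference of founders minus F1 in log2 for every member tested in the 9 deep types tested, with S phase, G2/M and G1 members in separate colours, a bar at each list's median and the 5 called members filled and named. The G2/M members in Chondrocyte all lie below 0 (median -0.93), those in Mesodermal Progenitor lie close to 0 (median 0.10), and Cdkn1a in CNS Neuron lies at 2.30.

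In the other types no member was called, although some differences were as large as those called in Chondrocyte, such as -1.52 for Mki67 in Ependymal Cell (adjusted p 0.391 by edgeR). The share of all genes called was 1.79% in Midgut, 1.68% in Foregut, 1.62% in Gut Mesenchyme/Amniotic Mesoderm, 1.15% in Neuroectoderm/Glia, 1.07% in Mesodermal Progenitor and 0.656% in Neuronal Progenitor. It was 0.0679% in Hepatocyte, 0.0134% in Ependymal Cell and 0% in Myoblast/Cardiomyocyte, Epithelial Cell and Endodermal Progenitor. In Neuronal Progenitor all 20 S phase members were lower in the founders, with a median of -0.25 and 8 at an unadjusted p under 0.05 (12.8% of all genes), while the 21 G2/M members split into 10 higher and 11 lower (median -0.02). Gut Mesenchyme/Amniotic Mesoderm had 19 of 20 S phase members lower (median -0.34, 10 at an unadjusted p under 0.05, beside 11.9% of all genes) and 14 of 17 G2/M members (median -0.65). Myoblast/Cardiomyocyte had 19 of 20 S phase members lower (median -0.17), Ependymal Cell 12 of 13 G2/M members lower (median -0.67), and Mesodermal Progenitor 17 of 21 G2/M members higher (median 0.10). The medians over all tested genes in these types lay between -0.0050 and 0.0023. Among the summed levels of the 10 deep types that are not red blood cells, the S phase level of both founders lay below both F1 suspensions in 6 types and above in Hematoendothelial Progenitor/Endothelium, and the G2/M level lay below in Chondrocyte and Ependymal Cell and above in Hematoendothelial Progenitor/Endothelium and Mesodermal Progenitor. The share of cells with at least 1 G2/M UMI lay below in Chondrocyte and Myoblast/Cardiomyocyte (84.8% and 90.4% against 93.3% and 94.5%). In Ependymal Cell it went against the level, at 62.5% and 71.9% in the founders against 18 of 30 and 20 of 33 cells, while the share with at least 3 UMIs was 27.5% and 31.3% against 33.3% and 39.4%. With at least 3 UMIs the founders also lay below in Gut Mesenchyme/Amniotic Mesoderm (12.7% and 11.2% against 20.8% and 22.9%) and Neuronal Progenitor (76.6% and 84.3% against 84.5% and 87.3%). The nearest founder and F1 shares were less than 1 percentage point apart in Neuronal Progenitor. They were as near, again with the founders below, in Myoblast/Cardiomyocyte (64.6% and 77.391% against 77.404% and 78.4%) and in Mesodermal Progenitor (99.2% and 98.96% against 100%). In CNS Neuron the founders lay above, also by less than 1 percentage point (6 of 120 and 11 of 148 cells against 5 of 106 and 5 of 141). Chondrocyte G2/M levels were 3.65 and 3.13 against 6.62 and 6.20. All types came from the same 4 suspensions, so the types in which the founders lay above or below are not separate agreements. With 2 suspensions against 2, the smallest two-sided p of an exact permutation test is 0.333, so that test could not pass a threshold for a level, and none was run.

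The other 115 cell cycle genes of the pathway gave 5 calls among 921 tested pairs by the same edgeR test, a share not above the 0.752% of all pairs. Cdkn1c, encoding the kinase inhibitor p57, was the only gene called in more than 1 type, higher in the founders in Chondrocyte by 0.49 (SE 0.078, adjusted p 0.0083) and in Gut Mesenchyme/Amniotic Mesoderm, where 1.03% of all genes were called higher and 0.595% lower, by 0.26 (SE 0.050, adjusted p 0.0322). The other calls were lower in the founders and are named after their values were seen: Cenpa, the centromere histone, in Gut Mesenchyme/Amniotic Mesoderm (-0.78), and in Chondrocyte Tacc3, a spindle protein (-1.32), and the histone chaperone Nasp (-0.50).

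Red blood cells had too few cells for the test and are given as values. The G2/M level of Erythroblast was 48.5 and 45.5 in the founders against 25.5 and 30.2, from 64, 52, 7 and 21 cells, and globin genes held 12.3% and 15.6% of the UMIs against 0.829% and 2.08%. In Erythrocyte the S phase level was 0.505 and 2.23 in the founders against 13.04 and 12.99, from 12, 23, 9 and 16 cells, with globin at 80.9% and 75.2% against 59.2% and 63.8%. The groups overlapped in neither value, and the share of globin, which lowers the level of every other gene, moved with them. Its part in the result was not tested.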

How the data were processed

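Single cells of E11.5 embryos were profiled with 10x Genomics 3′ chemistry and CellPlex tags that mark the suspension. The deposited values are UMI counts per gene and cell, which the authors made with Cell Ranger against mm10 with the EGFP sequence added. Their cell types come from a Seurat object built after SoupX (removal of free RNA), DoubletFinder and RECODE (noise reduction), whereas the counts used here are those of Cell Ranger, with free RNA left in. The authors' cell type and suspension columns were used, 328 barcodes without a cell type were left out, and 19 other annotation columns were not used. No doublet caller was run here, since the study's methods state that doublets had been removed from the annotated cells.

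Counts were summed per cell type and suspension. Founders (F0_8, F0_9) were compared with F1 (F1_1, F1_mix) in each type with 20 or more cells in every suspension, using edgeR 4.0.16 in R 4.3.3 (filterByExpr, TMM, quasi-likelihood F test, two-sided, Benjamini-Hochberg over all genes of the type). A second fit over the deep types tested whether the effect in a type differed from that in the others. Cells were thinned to 5000 gene UMIs with a fixed seed. Sums, shares and plots used Python 3.11.15, numpy 2.4.6, scipy 1.17.1, pandas 2.3.3 and matplotlib 3.10.9. DESeq2 1.42.0, other filters, depths and left-out suspensions were alternatives. The edgeR step was first tested on counts simulated with the same dispersion for all genes. It recovered 24% to 63% of 2-fold changes and 69% to 97% of 4-fold changes, depending on the cell type. A type without a called member can therefore hold differences that the test missed. Intervals cover counting error only.

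The members, gene lists and marker sets were chosen with earlier results of these data known. Genes named in the text were the 3 most abundant members of each role, the 5 members of each list with the widest ratio between types, every member called in the comparison of generations, and other cell cycle genes called in at least 2 types. Exceptions are stated in the text. Motifs were searched in RefSeq promoters.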

Additional observations from a re-analysis of the deposited data

Results flagged for a closer look

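The difference between founders and F1 in Chondrocyte and in CNS Neuron, the types chosen because they held called members, was set against that in the other deep types, and 4 members differed by the edgeR interaction test. Over all genes, the same test called 59 of 13860 in Chondrocyte and 192 of 13839 in CNS Neuron. No other type was tested in this way, and the test used the suspensions that gave those calls, so it is not independent support. The founder difference of Cdkn1a in CNS Neuron exceeded that elsewhere by 2.33 on the log2 scale (adjusted p 4.2e-04), and it stayed past the threshold without any single suspension, at 2.24 to 2.42. Ccnd1 in CNS Neuron differed by -0.58 (adjusted p 0.0261), which was lost without F0_9 or F1_1. Ccna2 in Chondrocyte differed by -1.41 (adjusted p 0.0289), lost without F1_1, and Tpx2 in Chondrocyte by -1.32 (adjusted p 0.0377), lost without F0_8, F1_1 or F1_mix.

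Cell cycle transcripts also appeared in data outside the comparisons. The 328 barcodes without a cell type held S phase genes at 16.2 and G2/M genes at 21.4 UMIs per 10000, above the level of 0.0170 that 3 UMIs would give and beside 17.9 and 22.5 in the cells used. Droplets of 1 to 100 gene UMIs held 17.3 and 18.2, and droplets of 100 to 300 gene UMIs held 13.4 and 18.1.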

How the results depend on the processing

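Of the 386 tests of members between founders and F1, 5 passed (0.752% of all pairs of gene and type), against 3 of 386 with DESeq2 (0.437%), 17 of 609 without a filter on low counts (1.67%), and 1 to 11 of 411 to 418 when single suspensions were left out (0.481% to 1.48%), the lowest without F0_8. DESeq2 kept Cdkn1a and Ccnd1 in CNS Neuron and called Rrm2 in Myoblast/Cardiomyocyte (-0.54). With cells under 5% mitochondrial UMIs, Birc5 (adjusted p 0.0529) and Tpx2 (0.0502) in Chondrocyte missed the threshold and Ccnd1 in Gut Mesenchyme/Amniotic Mesoderm passed it (0.43, adjusted p 0.0444), for 4 calls, while DESeq2 size factors in edgeR, no mitochondrial or globin genes, and a minimum of 30 cells each left 5 calls. The other cell cycle genes gave 5 calls, 2 with DESeq2, 20 without the filter and 2 to 13 with a suspension left out, and the tests of the difference between types gave 4 and 1 to 6. The alternatives for the other cell cycle genes and for the tests between types were added after the data were seen. The share of cells with a G2/M UMI differed between Mesodermal Progenitor and Neuroectoderm/Glia by 74.2 percentage points at 5000 UMIs, 89.0 at 2000, 88.8 at 1000, 54.98 with no thinning and 99.2 for at least 3 UMIs, while for an S phase UMI the deep type with the highest share, red blood cells left out, differed from Neuroectoderm/Glia by 23.0 (Neuronal Progenitor), 51.5 and 62.2 (Myoblast/Cardiomyocyte), 6.37 (Ependymal Cell) and 76.99 (Myoblast/Cardiomyocyte) at the same settings. The ratios of the summed levels between types moved by less than the spread, at 8.72 to 9.38 for S phase and 103 to 113 for G2/M without single suspensions. The 5 called members kept their direction in every alternative run, but the order of founders and F1 in the G2/M share of Ependymal Cell turned between at least 1 and at least 3 UMIs. No paired analysis was possible because the suspension names carry no number shared between founders and F1. Depth limits members with few UMIs, such as Ccna2 in Chondrocyte with 14 UMIs in F0_8.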
